A study of Rattus norvegicus with 24 samples.

Results

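Transcripts of 36 nuclear-encoded subunits of complex I were followed in the liver of rats that received the complex I inhibitor rotenone in the diet. The members were the genes whose platform symbol is Nduf with a, b, c, s or v and a number, together with Ndufab1, so that the assembly factors named Ndufaf were left out. They were 36 of the 22093 genes measured, and each was represented by the transcript cluster of that symbol with the highest mean over all arrays. By the known position of the proteins, 19 belonged to the membrane arm and 15 to the matrix arm. Ndufab1 occurs in both arms, and Ndufa4 carries a complex I name but is counted today with cytochrome c oxidase. Of the members, 6 were core subunits and 30 accessory subunits, while Ndufa13 as a gene of its own and the mitochondrially encoded ND genes were not analysed here.

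Complex I is the entry point of electrons from NADH into the respiratory chain. Its matrix arm binds NADH and passes electrons over a flavin and a chain of iron-sulfur clusters to ubiquinone, and its membrane arm pumps protons across the inner mitochondrial membrane. Core subunits carry out these steps and accessory subunits surround and stabilise them. Rotenone, a plant compound, blocks the step at which ubiquinone takes up the electrons, and liver depends on the complex for much of its oxidative metabolism.

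The livers came from male RccHan Wistar rats, aged 7 to 8 weeks at the start, which ate either untreated food (control, 0 ppm) or food with 400 ppm rotenone. Groups were killed after 1, 3 or 14 days, and 4 animals of each of the 6 groups were measured, with 1 array of whole-liver RNA per animal on the Rat Transcriptome Array 1.0. No genetic change was named for any group, and each rotenone group was compared with the control group of the same duration. Values are log2 of the intensity plus 1, changes are rotenone minus control with the moderated standard error after ±, and a gene rose or fell only when its p-value from limma, adjusted by Benjamini-Hochberg over 68842 transcript clusters, was below 0.05. In whole liver, fewer cells of a type and less RNA per cell cannot be told apart.

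The array median intensity ranged from 28.9 to 35.5, and arrays of a group correlated at 0.990 to 0.996 over the brighter clusters. Scores on the first principal component (29.5% of the variance) were 12.6 to 56.7 in rotenone and -43.2 to -15.9 in control livers, and rotenone day 14 replicate 1, at 27.1, stood apart from the remaining rotenone livers of day 14 (48.8 to 56.7). The hepatocyte marker albumin was at adjusted p of 0.861 or more in each comparison, and of 9 hepatocyte markers only Apoa1 passed on a day, with 0.64 on day 1 and -1.90 on day 14. Markers of other liver cells moved with the days. Of 7 Kupffer cell markers, 2 rose on day 1 and 3 fell on day 14, and their mean log2 level was 11.0 to 11.6 in rotenone against 10.1 to 11.2 in control livers on day 1, and 9.64 to 10.4 against 10.7 to 11.3 on day 14. Of 6 sinusoidal endothelial markers 4 rose on day 1 (10.8 to 11.4 against 10.4 to 10.8), and of 5 erythroid markers 3 fell on day 3 and 4 on day 14 (6.58 to 8.16 against 9.14 to 9.53). Of 6 stellate cell markers 3 fell on day 3 and 3 on day 14, and of 4 cholangiocyte markers Epcam rose on day 14. Their part in the results below was not tested.

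The clusters of the members spanned mean log2 intensities from 6.92 to 13.2. The highest values were those of Ndufa9 (13.2), Ndufb9 (13.1) and Ndufs1 (12.9), and the lowest those of Ndufb8 (6.92), Ndufb2 (7.25) and Ndufa12 (7.44). Intensities of different clusters depend on their probes and do not rank the transcripts. Of the members, 13 lay below 8.32, the 95th percentile of the negative control probe sets, among them Ndufs7, Ndufa3, Ndufb2 and Ndufa6. Of all genes, 76.8% lay below that value, so the shares over all genes given below include many genes of low signal.

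The sequence upstream of the start site is shown for 6 of the 7 subunit genes whose values are given liver by liver below, because these genes passed on more than 1 day or had the rises and the largest falls of day 1. The bases come from RefSeq on the rat build GRCr8, each line reads 5′ to 3′ towards the gene and ends at the base before the start site of that sequence set, and capitals mark matches, on either strand, to 1 of the 6 motifs named after the sequences. The marked matches do not overlap each other. For Ndufs7 and Ndufs5 the gene span of the annotation reaches further upstream, to 10110862 and 141264552, so the stretch shown lies inside it. Ndufb9 has no entry.

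Ndufs7 (chr7:10110499-10110648, minus strand): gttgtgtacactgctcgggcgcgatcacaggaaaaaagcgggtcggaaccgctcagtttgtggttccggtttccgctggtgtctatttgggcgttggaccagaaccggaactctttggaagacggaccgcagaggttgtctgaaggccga
Ndufa3 (chr1:74515559-74515708, minus strand): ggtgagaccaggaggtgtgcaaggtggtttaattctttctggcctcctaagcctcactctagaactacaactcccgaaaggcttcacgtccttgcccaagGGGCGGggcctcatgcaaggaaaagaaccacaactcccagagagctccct
Ndufb2 (chr4:69334157-69334306, plus strand): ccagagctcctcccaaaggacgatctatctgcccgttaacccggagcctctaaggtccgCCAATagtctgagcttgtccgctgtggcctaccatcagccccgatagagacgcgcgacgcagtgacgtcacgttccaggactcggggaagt
Ndufb11 (chrX:4126167-4126316, plus strand): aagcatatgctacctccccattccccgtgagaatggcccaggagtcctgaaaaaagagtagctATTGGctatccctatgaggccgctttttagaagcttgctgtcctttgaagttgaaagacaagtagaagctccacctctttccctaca
Ndufa1 (chrX:121293556-121293705, minus strand): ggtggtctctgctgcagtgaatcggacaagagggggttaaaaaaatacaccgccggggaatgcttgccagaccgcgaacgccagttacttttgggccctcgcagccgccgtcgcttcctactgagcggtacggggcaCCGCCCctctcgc
Ndufs5 (chr5:141264403-141264552, minus strand): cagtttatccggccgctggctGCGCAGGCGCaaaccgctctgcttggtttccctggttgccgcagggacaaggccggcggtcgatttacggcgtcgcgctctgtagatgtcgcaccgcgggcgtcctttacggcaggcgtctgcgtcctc

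In the 250 bases before the start, searched on both strands in the 34 members with an entry, the motif of the nuclear respiratory factor NRF1 was found in 6 members (17.6%) and in 4.17% of 27457 promoters. The 6 were Ndufa11, Ndufa12, Ndufa5, Ndufs5, Ndufs6 and Ndufv3, of which Ndufs5 fell on day 1 and Ndufs6 rose on day 14. The CCAAT box (CCAAT) was found in 29.4% of the members and 34.3% of all promoters, the Sp1 motif (GGGCGG) in 35.3% and 32.4%, and the ETS motif (CCGGAAGT) in 5.88% and 3.29%. The motifs of ERR (TCAAGGTCA) and YY1 (CAAGATGGC) were found in 0 of the 34 members, and in 0.368% and 0.648% of all promoters. The 150 bases shown for Ndufs7 held none of the 6 motifs, those of Ndufs5 held the NRF1 motif, those of Ndufa3 and Ndufa1 the Sp1 motif and those of Ndufb2 and Ndufb11 the CCAAT box. Letters of this kind in a window are a description and not a binding site.

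The comparison of rotenone with control on each day addressed whether the subunits of the inhibited complex changed in the liver, and when. On day 1, 3 members rose and 5 fell. Risen were Ndufa3 (1.04 ± 0.20) and Ndufb9 (0.83 ± 0.21) of the membrane arm and the core subunit Ndufs7 (0.70 ± 0.17) of the matrix arm. Fallen were Ndufa1 (-0.75 ± 0.14), Ndufs5 (-0.55 ± 0.15) and Ndufa10 (-0.38 ± 0.07) of the membrane arm and the core subunits Ndufs1 (-0.41 ± 0.09) and Ndufv2 (-0.38 ± 0.10) of the matrix arm. Of all genes, 5.69% rose and 3.73% fell on that day. The change was below 0 in 26 of the 36 members, with a median of -0.13 against -0.03 over all genes. With arrays centred on their medians, 20 were below 0, with a median of -0.04 against 0.06 over all genes, and without control day 1 replicate 3 the median was -0.08. At an unadjusted p under 0.05, limma counted 5 higher and 11 lower, against 13.4% and 11% of all genes. With single livers left out, 1 member rose without control replicate 4 or rotenone replicate 4 of that day, and 3 fell without control replicate 3 or 4 or rotenone replicate 1, 2 or 3.

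On day 3, 4 members rose and 0 fell, while 3.53% of all genes rose and 3.11% fell. Risen were Ndufs7 (0.96 ± 0.17), Ndufa3 (0.87 ± 0.20), Ndufb2 (0.66 ± 0.18) and Ndufb11 (0.58 ± 0.13). At an unadjusted p under 0.05, limma counted 7 higher and 1 lower, against 12% and 8.81% of all genes. The change was above 0 in 26 of the members, with a median of 0.10 against 0.03 over all genes. This median was 0.06 without control day 3 replicate 2 and 0.17 without control day 3 replicate 3. The count of risen members was 2 without control day 3 replicate 1, 2 or 4 or rotenone day 3 replicate 1.

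On day 14, 7 members rose and 0 fell, while 5.98% of all genes rose and 3.33% fell. Risen were Ndufs7 (0.74 ± 0.17), Ndufb2 (0.73 ± 0.18), Ndufa6 (0.57 ± 0.15), Ndufb11 (0.54 ± 0.13), Ndufc2 (0.46 ± 0.11), Ndufs6 (0.45 ± 0.10) and Ndufb5 (0.37 ± 0.09). At an unadjusted p under 0.05, limma counted 21 higher and 0 lower, against 14.5% and 9.01% of all genes. The change was above 0 in 33 of the members, with a median of 0.28 against 0.01 over all genes. The 3 below 0 were Ndufb7 (-0.08 ± 0.14), Ndufb8 (-0.05 ± 0.14) and Ndufa10 (-0.04 ± 0.07), none of which passed. The count of 7 depended on single livers, since 0 members passed without rotenone day 14 replicate 2 and 1 passed without control day 14 replicate 4. It was also 0 when only the 8 arrays of day 14 were fitted. These fits have fewer arrays, and in them none of the 7 changes reversed its direction.

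**Figure D1:**
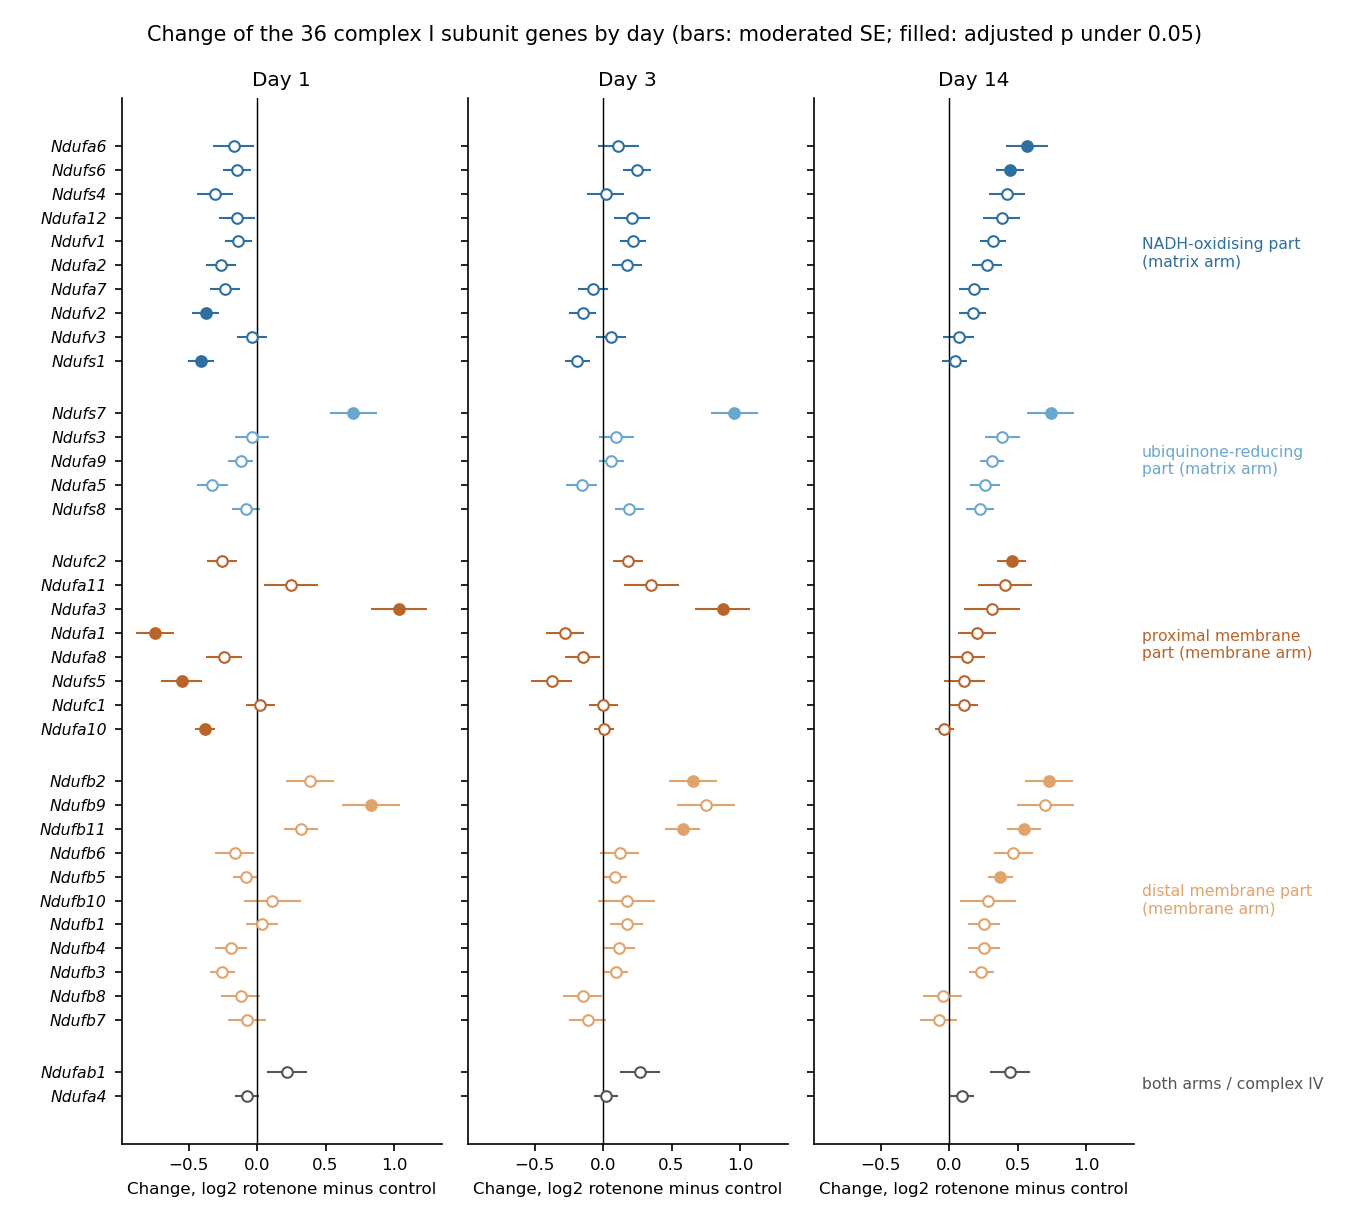
Change of each of the 36 subunit genes, as log2 rotenone minus control on the horizontal axis, on days 1, 3 and 14, ordered by part of the complex, where bars are the moderated standard error and filled points passed the adjusted threshold. On day 1, 26 points lie below 0, and on day 14, 33 points lie above 0.

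Averaged over the 3 days, 7 members rose and 4 fell, against 12.7% and 8.31% of all genes. The rises were Ndufs7 (0.80 ± 0.10, adjusted p = 5.4e-06), Ndufb9 (0.76 ± 0.12), Ndufa3 (0.74 ± 0.12), Ndufb2 (0.59 ± 0.10), Ndufb11 (0.48 ± 0.07), Ndufab1 (0.31 ± 0.09) and Ndufs6 (0.18 ± 0.06). Ndufab1, the mitochondrial acyl carrier protein, passed only in this average. The average rise of Ndufs6 was lost in 16 of the 24 fits without 1 array, and with the replicate number as a block. The falls were Ndufa1 (-0.27 ± 0.08), Ndufs5 (-0.27 ± 0.09), Ndufs1 (-0.19 ± 0.05) and Ndufa10 (-0.14 ± 0.04). With each array centred on its median, 7 rose and 0 fell on average, and 3 rose and 2 fell on day 1. The count fallen on average was 1 without control day 3 replicate 3, control day 14 replicate 2 or rotenone day 14 replicate 3, and 2 without control day 1 replicate 3 or 4, control day 3 replicate 1, control day 14 replicate 4, rotenone day 3 replicate 1 or 2, or rotenone day 14 replicate 4. In all, 15 members passed in at least 1 of these comparisons, and 21 did not.

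Ndufs7 holds the last iron-sulfur cluster before ubiquinone and was the only member that passed on all 3 days. On day 1 it lay at 7.05, 7.05, 7.22 and 6.94 in the control livers and at 7.55, 7.79, 7.78 and 7.96 in the rotenone livers. On day 3 the values were 7.19, 6.77, 7.56 and 6.87 in control and 8.12, 8.12, 7.96 and 8.00 in rotenone livers. Every rotenone liver lay above every control liver on both days. On day 14 the control livers spread from 6.73 to 7.61 and the rotenone livers from 7.76 to 8.23, again without overlap. The measured intensity of Ndufs7 was 1.63-fold, 1.94-fold and 1.67-fold higher on days 1, 3 and 14 (limma, adjusted p = 0.017, 0.0019 and 0.012). Its mean, like those of Ndufa3 and Ndufb2, lay below the 95th percentile of the negative controls, so the folds of these 3 genes are those of intensities that include background, and not exact ratios of transcript. Over the alternatives with a p, the adjusted p of Ndufs7 reached 0.057 on day 1, without control or rotenone replicate 4 of that day, and 0.10 on day 14, but no more than 0.023 on day 3.

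Ndufa3, a small accessory subunit near the foot of the matrix arm, was higher on the first days. Control livers of day 1 lay at 6.93, 7.07, 6.93 and 6.57, and rotenone livers at 7.60, 8.02, 7.89 and 8.15. On day 3 control livers lay at 6.83, 6.97, 7.68 and 7.03 and rotenone livers at 8.29, 8.00, 7.98 and 7.73. The groups did not overlap on either day, although control day 3 replicate 3 came close to the lowest rotenone liver. The rise was 2.06-fold on day 1 (limma, adjusted p = 0.0030) and 1.83-fold on day 3 (adjusted p = 0.017). On day 14 the control livers ranged from 6.73 to 7.82 and the rotenone livers from 7.33 to 7.79, and the change of 0.32 ± 0.20 did not pass.

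Ndufb9, an accessory subunit of the distal membrane arm that binds the acyl carrier protein, had one of the brightest clusters of the members. On day 1 control livers lay at 12.44, 12.63, 12.58 and 12.18 and rotenone livers at 13.12, 13.24, 13.34 and 13.47, with no overlap. It rose 1.78-fold (limma, adjusted p = 0.022). This call was lost without control replicate 1 or 4 or rotenone replicate 3 or 4 of that day. On day 3 (0.75 ± 0.21, adjusted p = 0.052) and day 14 (0.70 ± 0.21, adjusted p = 0.060) the change was of similar size but did not pass, and control livers then ranged more widely, from 12.34 to 13.31 on day 3 and from 12.04 to 13.30 on day 14.

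Ndufb2 and Ndufb11, accessory subunits of the distal membrane arm, passed on days 3 and 14. For Ndufb2, control livers of day 3 lay at 6.99, 6.65, 7.39 and 6.96 and rotenone livers at 7.79, 7.68, 7.56 and 7.59. On day 14 its control livers ranged from 6.50 to 7.36 and its rotenone livers from 7.54 to 8.14. The groups did not overlap on either day, and the rise was 1.58-fold (limma, adjusted p = 0.038) and 1.66-fold (adjusted p = 0.016). The day 3 call of Ndufb2 was lost without any 1 of 7 of the 8 livers of that day. The exception was control day 3 replicate 3. This call was also lost under centring on array medians, with the replicate number as a block and with only the 8 arrays of that day. For Ndufb11, control livers of day 3 lay at 8.48, 8.54, 8.88 and 8.49 and rotenone livers at 9.13, 9.27, 9.10 and 9.22. Its rotenone livers lay above all controls on day 14 as well, from 9.07 to 9.46 against 8.47 to 8.94. Ndufb11 rose 1.50-fold on day 3 (adjusted p = 0.0092) and 1.46-fold on day 14 (adjusted p = 0.012).

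Ndufa1 and Ndufs5, accessory subunits of the proximal membrane arm, had the largest falls. On day 1 Ndufa1 lay at 10.45, 10.15, 10.36 and 10.13 in control and at 9.61, 9.52, 9.45 and 9.54 in rotenone livers, a narrow rotenone group far below the controls. It was 1.68-fold lower (limma, adjusted p = 0.0020), and a second cluster of Ndufa1 fell by 0.65 ± 0.12 on the same day. On day 3 the groups overlapped (9.85 to 10.33 against 9.48 to 10.11), and on day 14 the change was 0.20 ± 0.14. Ndufs5 lay at 8.31, 8.76, 8.77 and 8.63 in control and at 8.10, 8.11, 8.11 and 7.93 in rotenone livers on day 1, 1.47-fold lower (adjusted p = 0.033). This call was lost without any 1 of 7 of the 8 livers of that day, the exception being control day 1 replicate 1. On day 3 its rotenone livers still lay below all controls (8.21 to 8.40 against 8.50 to 8.86), with a change of -0.38 ± 0.15 that did not pass, and on day 14 they ranged from 8.38 to 9.24.

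**Figure D2:**
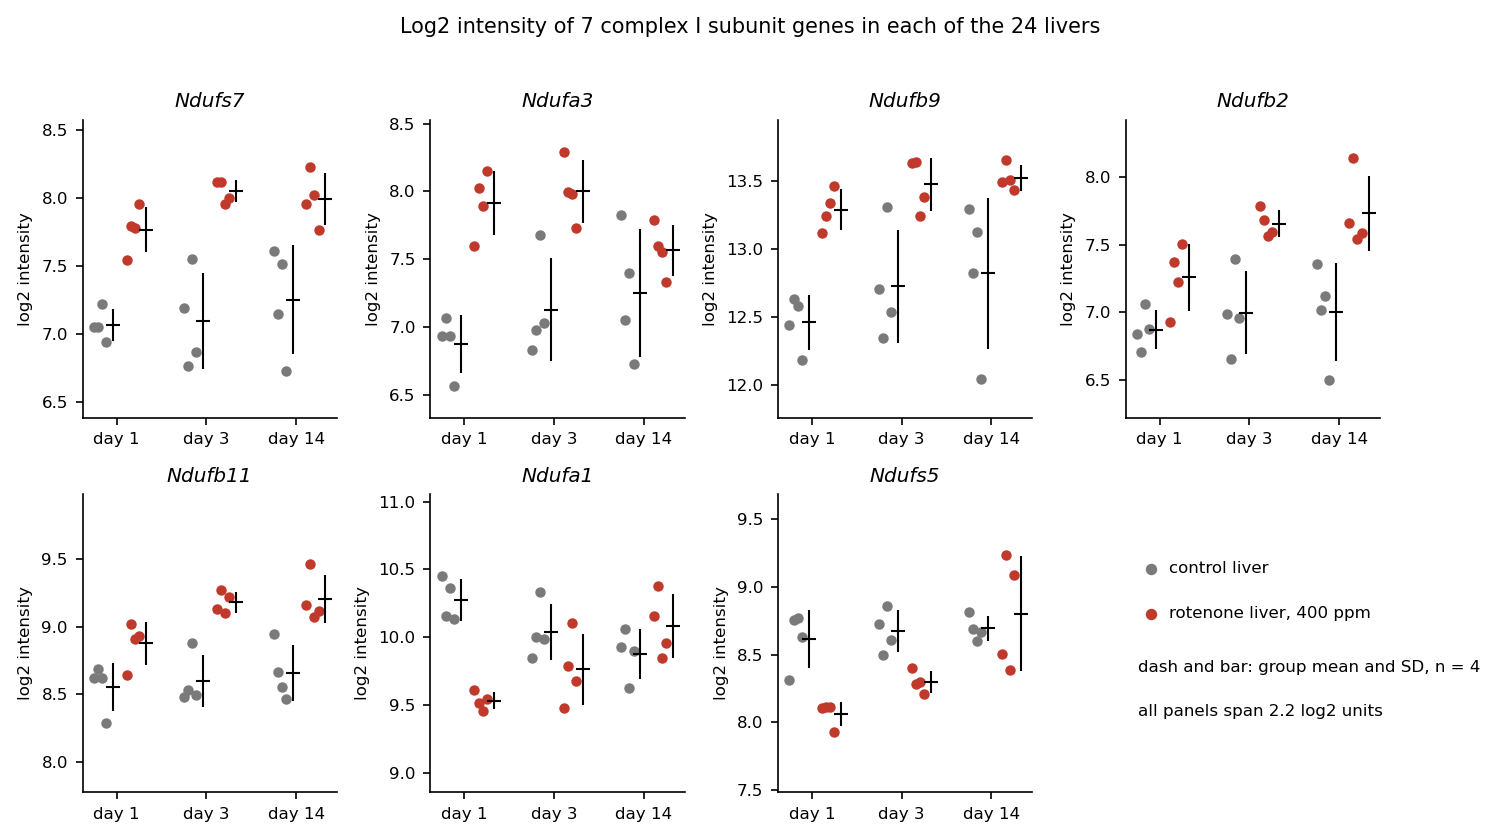
Log2 intensity of 7 subunit genes in each liver, control in grey and rotenone in red, by day, with replicates 1 to 4 from left to right and group mean and SD beside the points. The groups of Ndufs7 are apart on all 3 days, and those of Ndufa1 and Ndufs5 on day 1, with the rotenone livers below.

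The remaining members that passed on a day did so on 1 day each. Ndufs1, a core subunit with iron-sulfur clusters, fell on day 1 from 13.04 ± 0.11 to 12.63 ± 0.12 (SD, n = 4), and Ndufv2, another iron-sulfur protein of the core, from 12.88 ± 0.15 to 12.51 ± 0.08. Ndufa10, an accessory subunit related to nucleoside kinases, fell from 11.05 ± 0.06 to 10.67 ± 0.04. Its rotenone livers of day 3 lay at 11.01 ± 0.02 beside controls of 11.00 ± 0.05. On day 14, Ndufa6, which also binds the acyl carrier protein, rose from 7.57 ± 0.24 to 8.14 ± 0.27, and the membrane subunit Ndufc2 from 11.62 ± 0.14 to 12.07 ± 0.21. The mean of Ndufa6 over all arrays (7.64) lay below the 95th percentile of the negative controls, so its intensities include background. The zinc-binding subunit Ndufs6 rose from 9.80 ± 0.20 to 10.25 ± 0.18, and Ndufb5 of the distal membrane arm from 11.64 ± 0.11 to 12.01 ± 0.10.

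Of the 6 core subunits among the members, Ndufs7 rose on all days, Ndufs1 and Ndufv2 fell on day 1, and the other three passed on no day. Ndufv1, which binds NADH and the flavin, had changes of -0.14 ± 0.10, 0.22 ± 0.10 and 0.32 ± 0.10 on days 1, 3 and 14 (limma, adjusted p = 0.063 on day 14). Ndufs3 had -0.04 ± 0.13, 0.10 ± 0.13 and 0.39 ± 0.13, and Ndufs8, which carries iron-sulfur clusters next to Ndufs7, had -0.08 ± 0.10, 0.19 ± 0.10 and 0.22 ± 0.10. All 6 core subunits were above 0 on day 14.

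Counting livers rather than calls, 3 members on day 1 had all rotenone livers above all controls and 10 had all below, where 10.4% and 8.38% of all genes did so. On day 3 the counts were 6 above and 1 below (9.27% and 7.41% of all genes), and on day 14 they were 13 above and 0 below (9.47% and 5.95%). In some groups 1 liver held the highest or lowest value of most members. Rotenone day 14 replicate 2 held the highest value of its group in 34 of the 36 members, control day 3 replicate 3 in 32, and control day 14 replicate 4 the lowest in 26. In the rotenone livers of day 3 no liver stood out in this way at the high end, with the highest value in 11, 12, 10 and 3 members.

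The changes shifted upwards from day 1 to day 14. The change was higher on day 14 than on day 1 in 33 of the 36 members, followed the order day 1, day 3, day 14 in 28, and went from below 0 to above 0 in 23. Over all genes, 57.6% had a higher change on day 14 than on day 1. In complexes II, III, IV and V, 4 of 4, 9 of 9, 7 of 8 and 14 of 14 genes did so. The change was above 0 on all days in 9 members and below 0 on all days in 2, Ndufb7 and Ndufb8. Tested directly, the effect of day 14 was higher than that of day 1 in 3 members and lower in 0, against 1.24% and 0.928% of all genes. They were Ndufa1 (0.95, 95% interval 0.54 to 1.36), Ndufc2 (0.71, 0.39 to 1.03) and Ndufs6 (0.59, 0.30 to 0.89), with adjusted p of 0.021, 0.024 and 0.048 from limma. At an unadjusted p under 0.05, 21 members were higher and 1 was lower, against 9.27% and 7.21% of all genes. The F test among the 3 days passed in 0 members and in 1.41% of all genes, with 20 members and 15.2% of all genes at an unadjusted p under 0.05 and the lowest adjusted p, 0.056, at Ndufa1. Without rotenone day 3 replicate 1 or 3 it passed in 1 member, and without rotenone day 14 replicate 1 in 2. The effect of day 3 exceeded that of day 1 in 0 members, and that of day 14 exceeded day 3 in 0, with 0 lower in both and 7 higher and 0 lower at an unadjusted p under 0.05 in each, against 0.127% higher and 0.127% lower, and 0.0226% and 0.00905%, of all genes. The unadjusted shares of all genes were 5.59% and 5.16% for day 3 against day 1, and 5.59% and 3.5% for day 14 against day 3. For the risers of day 1 the differences between day 14 and day 1 did not pass, at 0.04 ± 0.24 for Ndufs7, -0.13 ± 0.30 for Ndufb9 and -0.72 ± 0.29 for Ndufa3.

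Control livers did not pass in any member between days. Control day 14 against control day 1 gave 0 higher and 0 lower members with limma, and 0 higher and 3 lower at an unadjusted p under 0.05, with 0% and 0.177% of all genes passing and 2.06% and 3.97% unadjusted. Control day 3 against control day 1 gave 0 and 0, and 0 higher and 1 lower unadjusted, against 1.34% and 1.47% of all genes. The median difference of the members between control livers was -0.04 for day 14 and -0.01 for day 3. The lowest for day 14 was that of Ndufa1, at -0.40 (95% interval -0.69 to -0.11). This lower control level is part of the 0.95 by which the effect on Ndufa1 differed between day 14 and day 1.

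Changes of the matrix arm lay mostly below 0 on day 1 and above 0 on days 3 and 14. In this arm, 14 of 15 changes were below 0 on day 1, Ndufs7 being the exception. On day 3, 11 of 15 were above 0, and on day 14, 15 of 15. In the membrane arm, 11 of 19 were below 0 on day 1, and 13 and 16 of 19 were above 0 on days 3 and 14. Of the 35 subunits of complexes II to V, 12, 22 and 35 were above 0 on days 1, 3 and 14. Over all genes, the shares above 0 were 43.9%, 55.9% and 53.2%. The part that oxidises NADH had 10 of 10 below 0 on day 1, with a median of -0.20, and 10 of 10 above 0 on day 14, with a median of 0.30. With arrays centred on their medians, 11 of 15 of the matrix arm and 9 of 10 of this part were below 0 on day 1. In the part that reduces ubiquinone, the 4 members other than Ndufs7 lay between -0.33 and -0.04 on day 1. Counts past the threshold in the matrix arm were 1 risen and 2 fallen on day 1, 1 and 0 on day 3, and 3 and 0 on day 14. Of all genes, 5.69% rose and 3.73% fell on day 1, 3.53% and 3.11% on day 3, and 5.98% and 3.33% on day 14. At an unadjusted p under 0.05, 11 of the matrix arm were higher and 0 lower on day 14, against 14.5% and 9.01% of all genes.

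On day 1 the membrane arm held the largest rise, of Ndufa3, and the largest falls, of Ndufa1 and Ndufs5. Its changes then ranged from -0.75 to 1.04, with an SD among members of 0.43 against 0.26 in the matrix arm, and on day 14 from -0.08 to 0.73, with SDs of 0.23 and 0.18. In its proximal part, 1 member rose on day 1 (Ndufa3) and 3 fell (Ndufa1, Ndufs5 and Ndufa10), with a median of -0.25. In its distal part, Ndufb9 rose on day 1, 2 rose on day 3 and 3 rose on day 14, with a median of 0.28 on day 14. In that part 0 fell on any day, and 3 were higher and 1 lower unadjusted on day 1, against 13.4% and 11% of all genes. Membrane members counted 2 risen and 3 fallen on day 1, 3 and 0 on day 3, and 4 and 0 on day 14. The shares of all genes were 5.69% and 3.73%, 3.53% and 3.11%, and 5.98% and 3.33% on these days. Of the 19 membrane members, 9 were higher and 0 lower on day 14 at an unadjusted p under 0.05. The unadjusted shares of all genes on day 14 were 14.5% and 9.01%.

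Averaged over the members of an arm in each liver, the matrix arm lay at 9.56 ± 0.06 in control and 9.42 ± 0.08 in rotenone livers on day 1 (SD, n = 4), and the membrane arm at 9.47 ± 0.08 and 9.47 ± 0.10. The difference membrane minus matrix was -0.13 to -0.06 in control and 0.02 to 0.07 in rotenone livers, so that on day 1 the groups did not overlap. Ndufa3, Ndufb2, Ndufb9 and Ndufb11 had the highest day 1 changes of the membrane arm and were chosen after their values were seen. Leaving them out, while Ndufs7 stayed in the matrix arm, lowers the difference in rotenone livers by construction. The values without them therefore only describe how far the separation depends on these genes. Without these 4 genes the membrane arm lay at 9.68 ± 0.09 in control and 9.51 ± 0.08 in rotenone livers on day 1, and its difference to the matrix arm overlapped, at 0.09 to 0.16 and 0.05 to 0.11. With all members, on day 3 (-0.11 to 0.02 and -0.07 to 0.06) and day 14 (-0.12 to 0.11 and -0.11 to -0.03) they overlapped. On day 14 both arms were higher in rotenone livers, 9.81 ± 0.15 against 9.49 ± 0.10 for the matrix arm, without overlap, and 9.74 ± 0.18 against 9.46 ± 0.18 for the membrane arm, with overlap. These means are descriptions without a test.

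**Figure D3:**
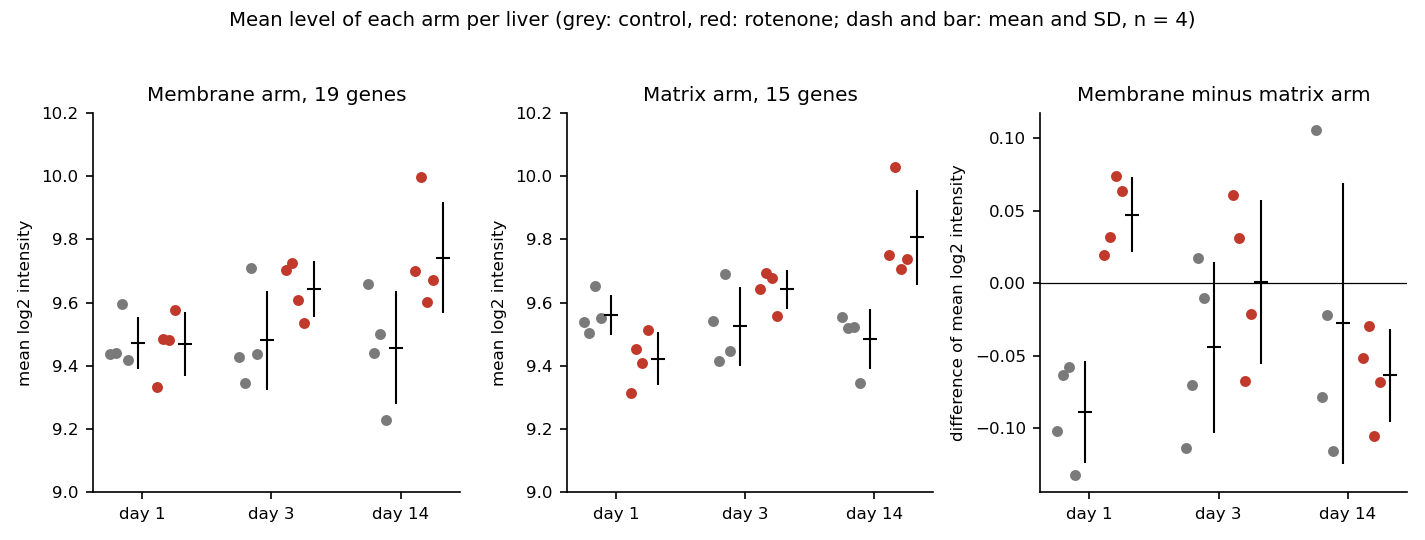
Mean log2 intensity of the 19 membrane arm genes and of the 15 matrix arm genes in each liver, and their difference, control in grey and rotenone in red, by day, with replicates 1 to 4 from left to right and group mean and SD. On day 1 the difference lies below -0.05 in all control livers and above 0 in all rotenone livers, which without Ndufa3, Ndufb2, Ndufb9 and Ndufb11 is 0.09 to 0.16 and 0.05 to 0.11, and on day 14 replicate 2 is the highest rotenone liver in both arms.

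Transcripts that resemble members were measured in 11 further clusters, and array probes may not separate such copies. The cluster of the pseudogene Ndufa3-ps3 rose with Ndufa3 on day 1 (1.37 ± 0.35) and day 3 (1.36 ± 0.35). That of Ndufs6-ps1 rose with Ndufs6 on day 14 (0.54 ± 0.13), and Ndufa10l1 fell with Ndufa10 on day 1 (-0.40 ± 0.11). Ndufa3, Ndufs6 and Ndufa10 are therefore uncertain as to which copy was read. For Ndufs7, Ndufb2, Ndufb9, Ndufa6, Ndufb5 and Ndufc2 no other cluster carried a similar symbol, and for Ndufb11 the cluster of Ndufb11b passed on no day.

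Assembly factors build the complex from its parts without remaining in it. Of 16 measured, 1 rose and 4 fell on day 1, 0 and 2 on day 3, and 0 and 1 on day 14, and 2, 2 and 4 were higher and 6, 3 and 2 lower at an unadjusted p under 0.05. Over all genes, 5.69% and 3.73% rose and fell on day 1, 3.53% and 3.11% on day 3, and 5.98% and 3.33% on day 14. At an unadjusted p under 0.05, 13.4% of all genes were higher and 11% lower on day 1. The unadjusted shares were 12% and 8.81% on day 3, and 14.5% and 9.01% on day 14. The median change of the assembly factors was -0.09, -0.03 and 0.16. Averaged over the days, the largest rises were Ndufaf4 (0.30 ± 0.08), Ecsit (0.29 ± 0.07) and Foxred1 (0.20 ± 0.05), and the largest falls Tmem70 (-0.49 ± 0.08), Timmdc1 (-0.37 ± 0.06) and Ndufaf7 (-0.25 ± 0.06). Tmem70 serves in the assembly of ATP synthase as well. Timmdc1, which helps to build the membrane arm, fell on days 3 and 14 while the medians of the subunits were above 0.

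In the values as deposited, nuclear subunits of the other complexes had median changes of the same signs as the complex I members on days 1 and 14. On day 1 the medians were -0.10 for 4 genes of complex II, -0.18 for 9 of complex III, -0.04 for 8 of complex IV and -0.15 for 14 of complex V. On day 14 they were 0.19, 0.26, 0.45 and 0.27. The median over all genes was -0.03 on day 1 and 0.01 on day 14. With arrays centred on their medians the day 1 median of all genes was 0.06. The lists of the other complexes were not examined under centring, so their day 1 signs hold for the deposited scale only. Of these 35 genes, 1 rose and 8 fell on day 1, and 4 rose and 1 fell on day 3. On day 14, 8 rose and 0 fell. The shares of all genes that rose and fell were 5.69% and 3.73% on day 1. They were 3.53% and 3.11% on day 3, and 5.98% and 3.33% on day 14. All 35 were above 0 on day 14, with 22 higher and 0 lower at an unadjusted p under 0.05, against 14.5% and 9.01% of all genes. No test between complexes was made.

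Single subunits of the other complexes moved in both directions, as in complex I. In complex IV, Cox6a1 rose on average by 1.02 ± 0.14, Cox8a by 0.54 ± 0.10 and Cox4i1, which serves in regulation of the enzyme, by 0.39 ± 0.06, while Cox7b fell by 0.28 ± 0.06. In complex III, Uqcrc1 (0.40 ± 0.07) and Uqcrh (0.40 ± 0.09) rose, and Uqcrb (-0.34 ± 0.06) and Uqcr10 (-0.27 ± 0.07) fell. In the ATP synthase, Atp5d (0.54 ± 0.08), Atp5mc2 (0.47 ± 0.09) and Atp5mc3 (0.24 ± 0.06) rose, and Atp5po (-0.31 ± 0.07), Atp5mc1 (-0.26 ± 0.08) and Atp5mf (-0.21 ± 0.05) fell. Of complex II, 0 of 4 genes passed on average, where limma counted 2 higher and 0 lower at an unadjusted p under 0.05. Of all 22093 genes, 4178 were higher and 3029 lower on average at that unadjusted threshold. Sdhd, a membrane anchor of complex II, rose on day 14.

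**Figure D4:**
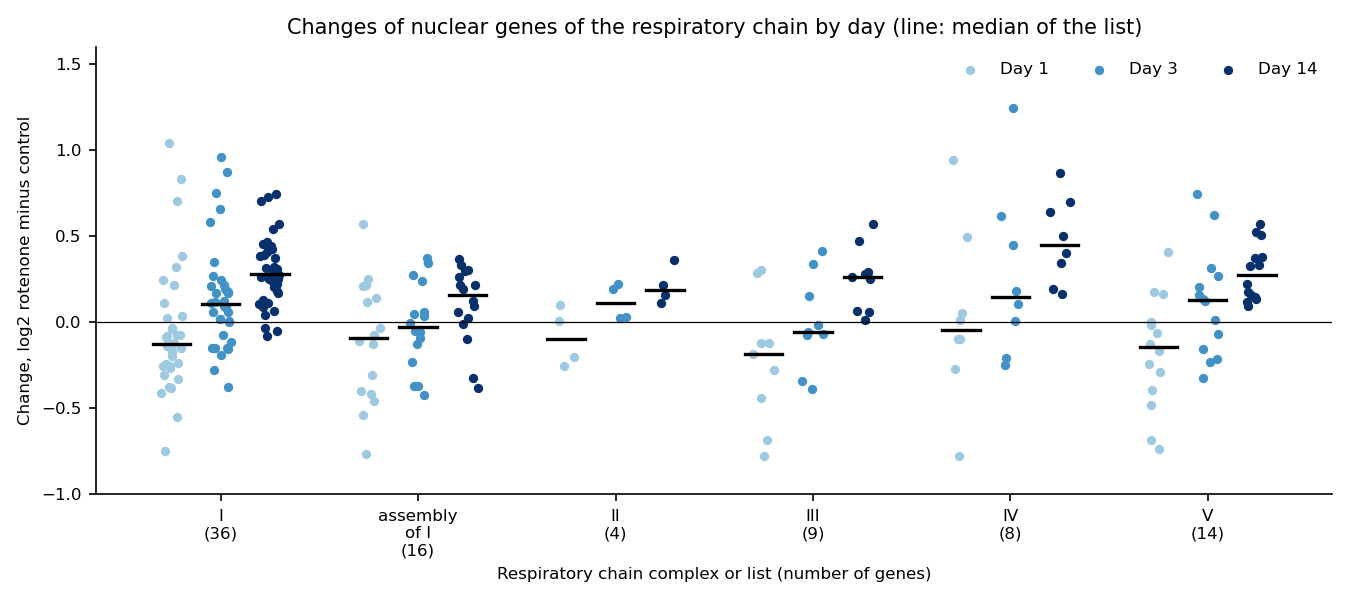
Change of single nuclear genes, as log2 rotenone minus control, of complex I, its assembly factors and complexes II to V on days 1, 3 and 14, where each point is a gene and the line is the median of the list. For complex I the medians are -0.13, 0.10 and 0.28, and on the deposited scale every list has a median below 0 on day 1 and above 0 on day 14.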

How the data were processed

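Liver RNA was hybridised to 24 Affymetrix Rat Transcriptome Arrays 1.0. The authors corrected and normalised the scans by GCCN, SST and RMA and deposited 1 intensity per probe set on a linear scale, as read from the values. Of 70580 features, 1738 control probe sets were left out, and 68842 transcript clusters were tested, of which 23446 carried 1 gene symbol, 505 several and 44891 none in the platform annotation. The log2 of the deposited intensity plus 1 was computed and fitted as 6 group means in limma 3.58.1 (R 4.3.3) with moderated two-sided tests and Benjamini-Hochberg adjustment over all clusters, with no filter. The script was tested on simulated data. All 36 members matched RefSeq by gene ID. The members and lists were chosen with earlier results of these data known.

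Named were the members past the threshold, the core subunits, the 3 brightest and 3 dimmest clusters, and for each other list up to 3 rises and 3 falls with the largest average change. Values of single livers were given for members past the threshold on 2 or more days and for the 2 largest rises and falls of a day. Alternatives were quantile normalisation, centring on array medians, a filter on low values, a pseudocount of 16, a trended and robust prior, the replicate number as a block, the 8 arrays of a day alone, the mean of all clusters of a gene, a filter built after the study's own methods with a 1.8-fold threshold, and leaving out each array. The number of arrays limits the precision. Each array came from its own animal per the labels.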

Additional observations from a re-analysis of the deposited data

Results flagged for a closer look

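Of 108 groups of 4 livers examined, 10 had a liver apart from the others, by Dixon's criterion on the gap as a share of the range of the group, and chance alone gives about 1 in 20. Control day 1 replicate 3 was high for the mean of all members (9.72 beside 9.58 to 9.59, a gap of 0.919 of the range) and of the membrane arm (9.60 beside 9.42 to 9.44, 0.871). Control day 1 replicate 4 was low for Ndufb11 (8.29, 0.837). Control day 3 replicate 3 was high for Ndufb11 (8.88, 0.858) and Ndufb5 (11.86, 0.883). On day 14, control replicate 4 was low for the mean of the matrix arm (9.34, 0.839) but high for Ndufs1 (13.13, 0.937), and control replicate 1 was low for Ndufa10 (10.95, 0.966). Rotenone day 1 replicate 4 was low for Ndufs5 (7.93, 0.941), and rotenone day 14 replicate 2 was high for the matrix arm (10.03, 0.861).

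The effect of rotenone differed between day 14 and day 1 by 0.950 for Ndufa1, 0.712 for Ndufc2 and 0.594 for Ndufs6, each tested directly with limma. Clusters outside the members also passed. They were Ndufs6-ps1 on day 14 (0.535, adjusted p = 0.014), Ndufa3-ps3 on day 1 (1.37, adjusted p = 0.025) and day 3 (1.36, adjusted p = 0.034), Ndufa10l1 on day 1 (-0.400, adjusted p = 0.034) and the second cluster of Ndufa1 on day 1 (-0.646, adjusted p = 0.0017).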

How the results depend on the processing

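No change of a member that passed reversed its direction, and the medians of the members kept their sign in the limma fits tried, with the largest shift on day 1 from -0.13 to -0.04 under centring, while several counts depended on the setting. Centring left 2 fallen members on day 1 and 0 on average. With only the 8 arrays of a day, 1 fell on day 1 (Ndufa1), 2 rose on day 3 and 0 rose on day 14. The filter built after the study's methods left 0 risen and 0 fallen on day 1, 1 risen on day 3 (Ndufs7) and 0 on day 14. Leaving out clusters of low mean raised the count risen on day 14 to 14, and a pseudocount of 16 to 12, and in both 4 members differed among the days. A trended and robust prior and the mean of all clusters each gave 1 that differed among the days. The cause of these shifts was not tested.

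Leaving out 1 array gave 1 to 3 risen and 3 to 5 fallen on day 1, 2 to 5 risen on day 3, 0 to 10 risen on day 14, 1 to 4 fallen on average and 0 to 2 that differed among the days. The calls of Ndufa1 and Ndufa3 on day 1, of Ndufb11 and Ndufs7 on day 3, and the average rises of Ndufs7, Ndufa3, Ndufb9, Ndufb2, Ndufb11 and Ndufab1 passed under all limma alternatives run on them. Samples sharing a replicate number did not deviate together, since 2 of 12 pairs had a correlation of deviations above 0.1 (range -0.114 to 0.169). With the replicate number as a block, 3 rose and 4 fell on day 1, 3 rose on day 3, 7 rose on day 14, and 6 rose and 2 fell on average. Signal over background limits the 13 members below the 95th percentile of the negative controls, of which 2 rose on day 1, 3 on day 3 and 3 on day 14.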

Other observations

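Regulators of mitochondrial genes were measured beside the subunits. Of 17 such genes, 3 rose and 0 fell on day 1, 3 rose and 1 fell on day 3, and 2 rose and 0 fell on day 14, where 5.69% and 3.73%, 3.53% and 3.11%, and 5.98% and 3.33% of all genes rose and fell. Ppargc1a, a coactivator of mitochondrial biogenesis, had changes of 0.88, 1.31 and 1.97 on days 1, 3 and 14, of which days 3 and 14 passed (limma, adjusted p = 0.0498 and 0.0019). Polg, the mitochondrial DNA polymerase, rose on all 3 days, by 0.62 on average. Gabpb1, a subunit of an ETS factor, rose on day 1 by 0.59 and on average by 0.45. Tfb1m, a mitochondrial rRNA methyltransferase, fell on day 3 by 0.60 on the log2 scale and on average by 0.36. The factor NRF1 (Nrf1) passed on average (0.19, adjusted p = 0.021) and on no single day, and Esrra, Gabpa and Tfam passed in none of these comparisons.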
